A study of Rattus norvegicus with 16 samples.

Results

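The comparison set the hearts of spontaneously hypertensive rats (SHR) given neferine against the hearts of SHR given water. It comprised 11 of the 16 libraries of the series: all 6 labelled neferine (numbers 1 to 6) and all 5 labelled SHR (numbers 1, 2, 3, 4 and 6). Neferine went into the stomach at 10 mg/kg per day for 10 weeks, and the untreated SHR received double distilled water by the same route for the same time. The treatment fields of the neferine libraries also list water. SHR had been assigned to water or drug at random, per the labels' protocols, and the age and sex of the rats are not given in the sources used here. The 5 libraries of the normotensive Wistar Kyoto strain (WKY), also given water, were left out of the main tests. They joined the fit only in alternatives that say so. Elsewhere their values stand beside named transcripts as a reference. SHR 1 has a description that reads WKY, while its title, strain, genotype and group read SHR, and it was kept as SHR.

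The SHR is an inbred strain that develops high blood pressure with age, and its left ventricle thickens and stiffens under the load. Such remodelling is known for enlarged cardiomyocytes, collagen laid down by fibroblasts, and the return of foetal genes such as those of the natriuretic peptides. Neferine is an alkaloid of the lotus seed embryo, built of a pair of benzylisoquinoline units, and the series title names cardiac remodelling as the condition studied. The files name each transcript by an Ensembl rat identifier ("annotated") or by a MERGE identifier with a locus number and a transcript number ("assembled" by the authors). None of the 31042 identifiers could be paired with a gene symbol (0 matched in the GRCr8 table), so the genes named above, and the marker genes of heart cells, could not be looked up. The label of heart tissue was therefore not checked against markers. In whole tissue, fewer cells of a type and less RNA per cell cannot be told apart.

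Of 31042 transcripts listed for both groups, 12553 were annotated and 18489 assembled. The deposited values are a normalised abundance on a linear scale with no read counts, so depth is unknown and precision rests on the number of libraries. They summed to 587365 to 683638 in the SHR libraries and to 611853 to 636768 in the neferine libraries. The 2 groups were deposited with different sets of rows, so an effect of the drug and a difference in how each set of files was made cannot be told apart. Libraries also differed within each group. Deviations from the group means balance within each group, so any component of them places libraries of both groups on both sides. Whether the split given next is more than this was not tested. On the first principal component of these deviations, which held 14.9% of their variance, SHR 3 and SHR 4 scored -61.0 and -40.9. The other SHR scored 29.8 to 37.0. Neferine 4, 5 and 6 scored -23.8 to -16.3 against 17.1 to 24.8 for neferine 1, 2 and 3. Results that rest on these libraries are given with and without them.

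The first question was which cardiac transcripts changed under neferine. A total of 21786 transcripts reached a value of 1 in 5 or more of the 11 libraries, and 3 of them passed (limma on log2(value + 1), Benjamini-Hochberg adjusted p under 0.05), which is 0.0138% of those tested. MERGE.984.3 and MERGE.18471.1 rose (0.00918% called higher), and MERGE.5947.1 fell (0.00459% called lower). All 3 were among the 11813 assembled transcripts (0.0254% called). Of 9973 annotated transcripts 0 passed in the limma test (0%). The next smallest adjusted p in the limma test was 0.181. At an unadjusted p under 0.05 there were 1186 transcripts (5.44%), against 1089 expected with no difference. The 5 SHR and 6 neferine libraries did not overlap for 118 transcripts (0.542%), of which 76 were higher (0.349%) and 42 lower (0.193%) with neferine.

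Among the 1186 transcripts at an unadjusted p under 0.05, 788 were higher (3.62% of those tested) and 398 lower (1.83%) with neferine, so 66.4% were higher. Annotated transcripts made up 524 of them (5.25% of the annotated), with 389 higher (3.9%) and 135 lower (1.35%). Assembled transcripts made up 662 (5.6% of the assembled), with 399 higher (3.38%) and 263 lower (2.23%). With a median-of-ratios factor per library 54.8% were higher. Without neferine 1, 2 and 3 the share was 80.9%, and without neferine 4, 5 and 6 it was 38.8%. By mean value, 56.6% of 53 transcripts under 1 were higher, 69.8% of 547 from 1 to 3, 68.1% of 360 from 3 to 10, 62.1% of 198 from 10 to 100 and 28.6% of 28 at 100 or more. The difference between these classes was not tested. The median log2 fold change of all transcripts tested was 0.04.

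**Figure D1:**
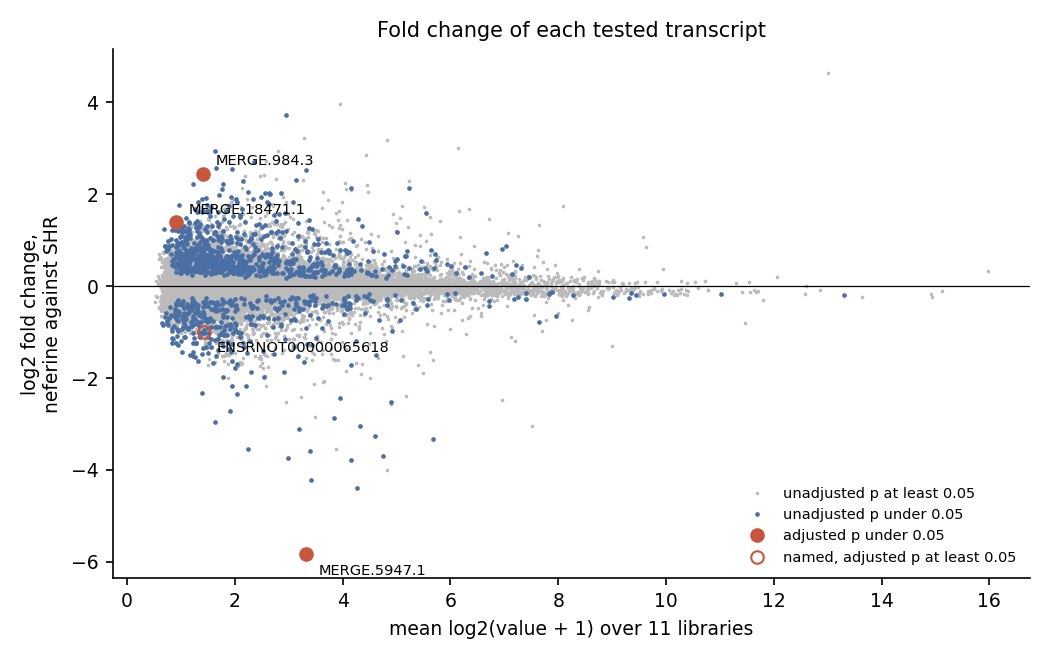
Log2 fold change of neferine-treated against water-treated SHR for 21786 transcripts, against the mean log2(value + 1) over the 11 libraries. The 3 filled red points passed an adjusted p under 0.05, the open red point is the named transcript that did not, and the lowest point is MERGE.5947.1 at -5.83.

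MERGE.984.3 was near 0 in every untreated SHR heart and present in every treated one. Its values were 0.0285, 0.128, 0.0723, 0 and 0.0358 in SHR 1, 2, 3, 4 and 6. They were 4.80, 4.97, 4.03, 4.84, 5.17 and 4.69 in neferine 1 to 6. The groups did not overlap, and the lowest treated heart was far above the highest untreated one. The mean was 0.0530 ± 0.0494 in SHR (SD, n = 5), against 4.75 ± 0.390 with neferine (SD, n = 6). The log2 fold change was 2.45 (SE 0.0986, limma adjusted p 1.22e-06), and the exact permutation p was 0.00216, the smallest that 5 against 6 libraries can give. It passed when each of the 11 libraries was left out, but not when the 5 WKY libraries joined the fit (limma adjusted p 0.0525). Among the 11 libraries it met the filter on low values only through the treated hearts, where it was high. The p-values do not account for this, and the filter was not redone as libraries were left out.

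The locus of MERGE.984.3 holds 3 transcripts in both sets of files, and MERGE.984.3 was the highest of them only in the treated hearts among the 11. Transcript 1 of the locus had values of 5.34, 4.93, 0.265, 3.56 and 3.29 in SHR 1, 2, 3, 4 and 6, and 0.131 to 1.16 in the neferine libraries. These groups overlapped at SHR 3, and the difference did not pass (limma adjusted p 0.880). Transcript 2 had 0.987, 0.706, 6.03, 2.64 and 2.98 in the SHR libraries and at most 0.111 with neferine. These groups did not overlap (exact permutation p 0.00216), but it reached a value of 1 in too few libraries to enter the limma test. Transcript 1 was thus the highest of the locus in SHR 1, 2, 4 and 6 and transcript 2 in SHR 3, while MERGE.984.3 was the highest in all 6 neferine libraries. The sum of the 3 was 6.20 ± 0.251 in SHR (SD, n = 5), against 5.22 ± 0.204 with neferine (SD, n = 6). These sums did not overlap either and were lower with neferine (exact permutation p 0.00216). Their log2 difference was small at -0.21 (SE 0.0746, limma adjusted p over all loci 0.919). MERGE.984.3 held 0.875% ± 0.856 of the sum in SHR (SD, n = 5), against 91.1% ± 7.77 with neferine (SD, n = 6).

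Untreated WKY hearts held MERGE.984.3 at both ends of this range. It was 5.83 and 4.63 in WKY 3 and WKY 4, at 99.8% and 90.0% of the locus sum, 1.26 in WKY 5, 0.687 in WKY 1 and 0.00967 in WKY 6. The transcript with the highest value thus differed between WKY hearts that had received no drug. The row also owes its place to the strain comparison and to the treated hearts. All 1392 shared rows with a SHR mean under 0.5 had a WKY mean of at least 0.5, and MERGE.984.3 reached a value of 1 only through neferine libraries among the 11. A filter passed through 1 group alone favours transcripts that differ between the groups. Of 87 tested transcripts with a SHR mean under 0.5, 46 had an unadjusted p under 0.05 (5.44% over all transcripts), and all 46 were higher with neferine. Of 36 tested transcripts with a neferine mean under 0.5, 20 had one. MERGE.18471.1 belongs to the same class.

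MERGE.18471.1 was also near 0 in the untreated SHR hearts, with SHR 2 the highest, and above 1 in all treated ones. Its values were 0.0449, 0.516, 0, 0.0369 and 0.0443 in SHR 1, 2, 3, 4 and 6. With neferine they were 2.44, 1.06, 2.21, 1.90, 2.20 and 1.96 in libraries 1 to 6. The groups did not overlap, with neferine 2 the lowest treated and SHR 2 the highest untreated heart. The log2 fold change was 1.39 (SE 0.167, limma adjusted p 0.0327). The call did not last: leaving out 1 library ended it in 9 of 11 cases (limma adjusted p 0.00953 to 0.132). It was kept only without SHR 2 or without neferine 2.

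Its locus again has 3 transcripts, and their sum was 1.66 ± 1.02 in SHR (SD, n = 5), against 2.09 ± 0.301 with neferine (SD, n = 6), with no difference past the threshold (log2 0.33, SE 0.274, limma adjusted p 0.919). Transcript 2 was the highest of the locus in SHR 2, 3 and 4, with values of 0.942, 1.64 and 2.46. Transcript 6 was the highest in SHR 6, with a value of 2.53, and the whole locus summed to 0.0695 in SHR 1, where MERGE.18471.1 held 64.6% of that trace. In all 6 neferine libraries MERGE.18471.1 was the highest, at 64.8% to 98.6% of the sum. Its share was not tested, since the others of the locus did not pass the filter on low values. In untreated WKY it was the highest in WKY 4 (1.32) and WKY 6 (2.14), and it was listed at 0 in WKY 1, 3 and 5.

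**Figure D2:**
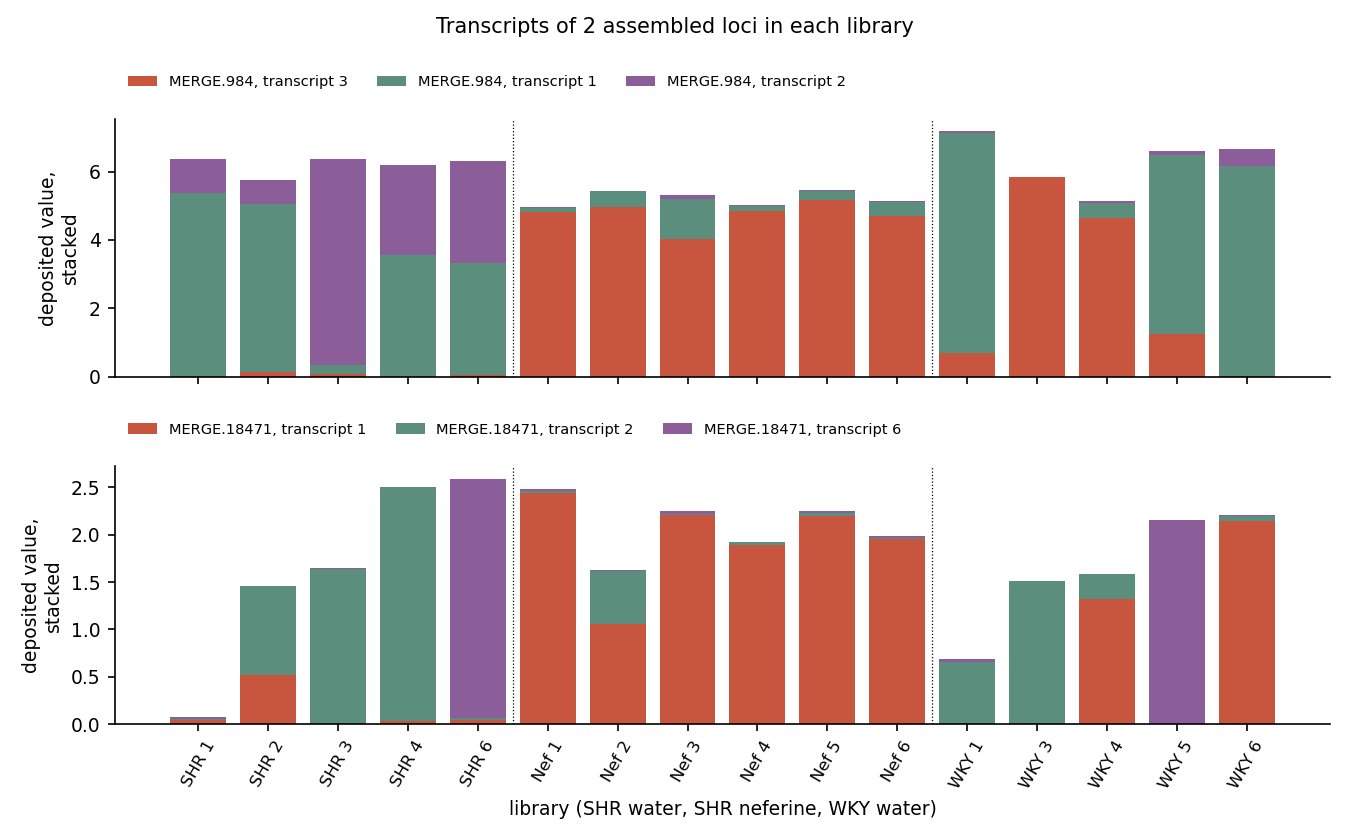
Deposited values of the 3 transcripts of the loci MERGE.984 and MERGE.18471, stacked, in each of 16 libraries (5 SHR, 6 neferine, 5 WKY). The bar heights, which are the locus sums, lie between 4.97 and 7.18 for MERGE.984, while the transcript that fills the bar differs between libraries, also among the untreated WKY.

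MERGE.5947.1 fell from the highest value of the named transcripts to near 0. It was 85.7, 61.7, 111, 121 and 81.4 in SHR 1, 2, 3, 4 and 6. With neferine it was 2.35, 0.546, 0.757, 0, 0 and 0.819 in libraries 1 to 6. Every treated heart lay below every untreated one by a wide gap. The log2 fold change was -5.83 (SE 0.307, limma adjusted p 1.09e-05, exact permutation p 0.00216). It passed without each of the 11 libraries and in every other limma fit that tested it (highest adjusted p 0.0250). The filter that asked for a value of 1 in all 11 libraries left it untested. Among these libraries only the untreated SHR and neferine 1 reached a value of 1, so its place in the test rests mainly on the group where it was high. Unlike the pair that rose, this transcript was evenly present in WKY, at 67.7 ± 10.1 (SD, n = 5).

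MERGE.5947.1 is a minor product of a large assembled locus. Its locus had 51 shared transcripts, and MERGE.5947.1 held 2.56% ± 0.562 of their sum in SHR (SD, n = 5), against 0.134% ± 0.218 with neferine (SD, n = 6). The locus sum varied far more among treated hearts, from 419 in neferine 6 and 426 in neferine 1 to 3393 in neferine 5, than among untreated ones, from 3252 to 3922. Its mean was 3576 ± 282 in SHR (SD, n = 5), against 2047 ± 1376 with neferine (SD, n = 6), and the groups overlapped, with neferine 4 and neferine 5 above the lowest SHR. The difference did not pass (log2 -1.27, SE 0.585, limma adjusted p 0.919, exact permutation p 0.0714). Of the 32 other transcripts of the locus that were tested here, 13 were higher and 19 lower with neferine, and none passed (smallest limma adjusted p 0.221). At an unadjusted p under 0.05 there were 9 of the 32, against 5.44% over all transcripts, and all 9 were lower with neferine, by log2 values of -4.40 to -2.53. The fall of its share of the locus did not pass over the 6283 shares tested (log2 -4.56, SE 0.898, limma adjusted p 0.496).

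The lower transcript with the next smallest p and no overlap between the groups was the annotated ENSRNOT00000065618, which did not pass. Its values were 3.49, 2.61, 2.19, 3.13 and 3.25 in SHR 1, 2, 3, 4 and 6, and 1.43, 0.597, 1.27, 0.979, 0.953 and 0.713 in neferine 1 to 6. All treated hearts were lower than all untreated ones. The log2 fold change was -0.99 (SE 0.147, limma adjusted p 0.181). In WKY it was 1.20 ± 0.366 (SD, n = 5). When the WKY libraries joined the fit it passed narrowly (limma adjusted p 0.0477), where MERGE.984.3 narrowly did not (limma adjusted p 0.0525). With the filter also taken over all 16 libraries, neither passed.

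**Figure D3:**
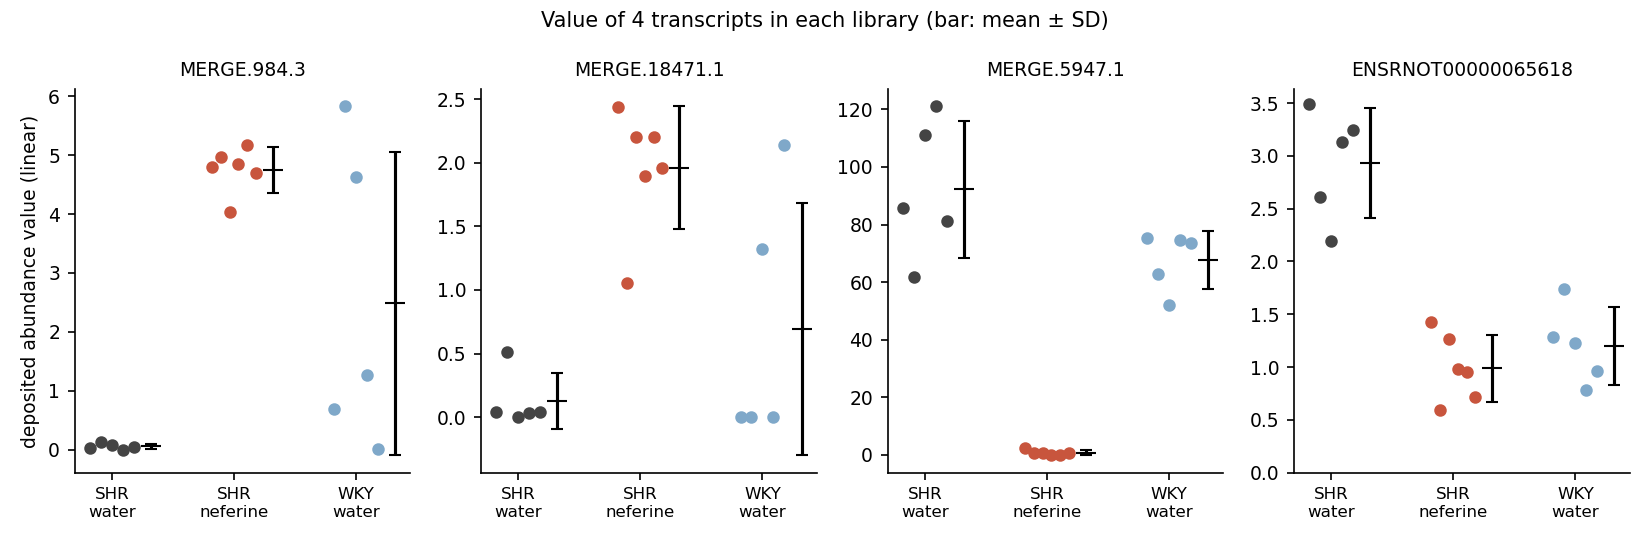
Deposited value in each library for MERGE.984.3, MERGE.18471.1, MERGE.5947.1 and ENSRNOT00000065618, with the mean ± SD of 5 SHR, 6 neferine and 5 WKY libraries. SHR and neferine points do not overlap in any panel, and the WKY points of MERGE.984.3 run from 0.00967 to 5.83.

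The exchange of transcripts within a locus was then examined over the whole set. Transcripts of 1 locus share much of their sequence, and short reads from the shared parts have to be divided among them. Of 2852 loci with several transcripts and a sum of at least 1 in all 11 libraries, 580 (20.3%) had the same highest transcript in every library. Averaged over pairs, untreated SHR hearts differed in the highest transcript at 39.7% of loci, treated hearts at 38.3%, and a treated and an untreated heart at 39.1%. Pairs within a group thus disagreed, on average, about as often as pairs across the treatment. MERGE.984 was the 1 locus whose highest transcript in all 6 neferine libraries was the highest in no SHR library, and 1 other locus showed the reverse. At 0 loci did all 5 SHR share 1 highest transcript and all 6 neferine libraries share another.

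Wide ranges within a group also occurred among abundant transcripts. A value of 1000 or more in some library was reached by 77 shared transcripts, of which 10 ran from at most 10 to at least 1000 among the untreated SHR and 9 did so among the treated. The fifth most abundant transcript, which is annotated, had values of 10.6 and 8.78 in SHR 1 and SHR 6, 35717 to 41039 in SHR 2, 3 and 4, and 33070 to 38781 in all neferine libraries. Its 95% interval of the fold change ran from 0.675 to 914, so the data set no useful limit on it. The most abundant transcript, also annotated, was low in the same hearts, at 31755 in SHR 1 and 41172 in SHR 6 against 74876 to 78957 in SHR 2, 3 and 4. It was 59313 to 77623 with neferine.

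Sums per assembled locus do not depend on how values were divided among those transcripts of the locus that both groups list. The same filter left 8049 loci, 4430 of them with a single shared row, where the sum is the value of that transcript. Of the 8049, 0 passed in the limma test (0%) and 405 had an unadjusted p under 0.05 (5.03%), against 402 expected with no difference. Among the 3619 loci with 2 or more shared rows, 202 had one (5.58%). Over all 8049 loci, 238 were higher (2.96%) and 167 lower (2.07%) with neferine at that level. The groups did not overlap for 39 loci (0.485%), with 20 higher (0.248%) and 19 lower (0.236%). The smallest limma adjusted p was 0.305. It belonged to a locus of a single transcript, with sums of 1.47 to 1.94 in SHR and of 0, 0.0547, 0.179, 0.212, 1.07 and 0.218 in neferine 1 to 6 (log2 -1.15, SE 0.177). Neferine 5 was the highest of the treated hearts and still below every SHR. The next locus in order was also a single transcript, with sums of 0.327, 0, 0, 1.24 and 0.278 in SHR and 1.14 to 3.34 with neferine (log2 1.40, SE 0.238, limma adjusted p 0.383). These groups overlapped at SHR 4 and neferine 1. Leaving out SHR 3 or neferine 5 gave 1 locus past the threshold in either case.

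For loci with several tested transcripts, the share of each transcript in its locus sum was tested as well. Of 6283 transcripts in 2277 loci, 1 passed (0.0159%). It was MERGE.984.3, with a log2 rise of 2.66 in its share (SE 0.137, limma adjusted p 3.14e-06). That result rests on the same values and the same filter as the test of its level, and is no separate support for it. The transcripts of these loci had a median standard error of 0.322 (log2), and the sums of the same loci 0.173. The division among transcripts was thus less precise than the total of the locus. At an unadjusted p under 0.05 there were 311 shares (4.95%), against 314 expected with no difference. Of these, 177 were higher (2.82%) and 134 lower (2.13%) with neferine. The groups did not overlap for 31 shares (0.493%), with 16 higher (0.255%) and 15 lower (0.239%).

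The next question was how large an effect of neferine the data leave room for. Over all transcripts tested, fold changes had a median standard error of 0.21 (log2). The 95% interval lay within 1.5-fold in either direction for 44.8% of transcripts, within 2-fold for 70.8% and within 4-fold for 93.6%. Each interval covers its own transcript and not all of them at once. These bounds are on the value + 1, so at low values they hide larger changes of the value itself. With a pseudocount of 0.1 the share within 2-fold was 53.5%.

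Within 1.5-fold, bounds tightened with abundance. Among 9598 transcripts with a mean value of 1 to 3, 36.8% had an interval within 1.5-fold, and among 607 with a mean of at least 100, 74.6% did. Within 2-fold the order was not even, with 72% in the class under 1, 67.4% in the class of 3 to 10 and 87.3% in the highest. For 1397 transcripts the interval reached beyond 4-fold, 43 of them with a mean of at least 100. Annotated transcripts were bounded more tightly than assembled ones: 80.4% against 62.7% lay within 2-fold. Among locus sums 81.5% lay within 2-fold and 97.2% within 4-fold. For loci with 2 or more shared rows 80.1% lay within 2-fold. The standard deviation of the fold changes was 0.40 over transcripts and the root mean squared standard error 0.35, with a remainder of 0.18 (log2). These standard errors are those of limma, which draws large variances toward the trend, so the remainder can still hold error. For locus sums the remainder was 0.12. Whether the remainder comes from the drug, from the sets of files or from such error cannot be told apart.

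**Figure D4:**
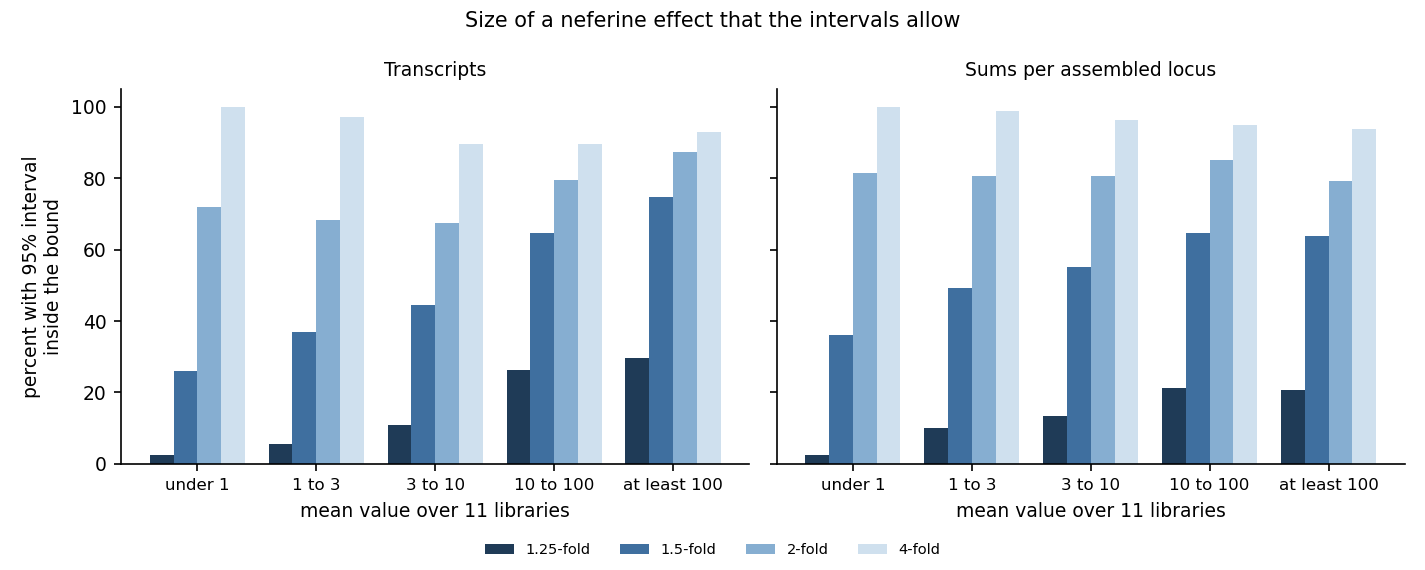
Percent of transcripts (left) and of assembled locus sums (right) whose 95% interval of the fold change lay within 4 nested bounds (1.5-, 2- and 4-fold and a narrower one named in the legend), by mean value over 11 libraries. Within 1.5-fold the share of transcripts rises from 26.0% in the lowest class to 74.6% in the highest.

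Some abundant annotated transcripts were bounded closely. The ninth most abundant had a mean of 6215 ± 671 in SHR (SD, n = 5), against 6239 ± 588 with neferine (SD, n = 6), and its fold change had a 95% interval of 0.875 to 1.15. The second had 37133 ± 3907 (SD, n = 5) against 34287 ± 2555 (SD, n = 6), with an interval of 0.808 to 1.06. The seventh had 10833 ± 651 (SD, n = 5) against 9530 ± 404 (SD, n = 6), with an interval of 0.799 to 0.970 that excluded no change before adjustment, but not after it (limma adjusted p 0.880). For these transcripts a change of 1.5-fold lay outside the interval.

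The last question was whether treated hearts varied less among themselves than untreated ones. Each library's root mean square distance from the mean of the others of its group, over all transcripts tested and rescaled for the size of the group, was 0.634, 0.629, 0.666, 0.628 and 0.638 (log2) in SHR 1, 2, 3, 4 and 6. It was 0.610, 0.610, 0.643, 0.621, 0.606 and 0.637 in neferine 1 to 6. The groups overlapped, and SHR 3 was the farthest. The distance was 0.639 ± 0.0154 in SHR (SD, n = 5), against 0.621 ± 0.0156 with neferine (SD, n = 6). Its log2 difference of -0.0412 missed the threshold (p = 0.0844, permutation of these distances in both directions). The distances were not computed anew for each split, and within a group they depend on each other. The p-values of the spread are therefore rough and not exact. Without SHR 3 and SHR 4 the difference was 0.00780 (permutation p = 0.702). Those libraries share a side of the first component of these same data, so leaving them out favours a tighter SHR group. By median absolute distance in place of root mean square the difference was -0.186 (permutation p = 0.0498).

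By transcript, the standard deviation was larger in SHR for 12175 transcripts and larger with neferine for 9611. The median was 0.336 (log2) in SHR and 0.312 with neferine. The gap was widest for abundant transcripts, at 0.262 in SHR and 0.167 with neferine for those with a mean of at least 100, and in the lowest class the order was the other way, at 0.457 and 0.466. The deposited sums ranged more widely in SHR, with an SD of 41643 against 9083 with neferine. The assembled share of the shared values was at most 22.6% in SHR (in SHR 1) and at most 17.2% with neferine. Whether these ranges differ was not tested. The group means of 6 summary measures per library were compared, the sum and the assembled share among them, and none passed an exact permutation test after adjustment (smallest adjusted p 0.506).

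**Figure D5:**
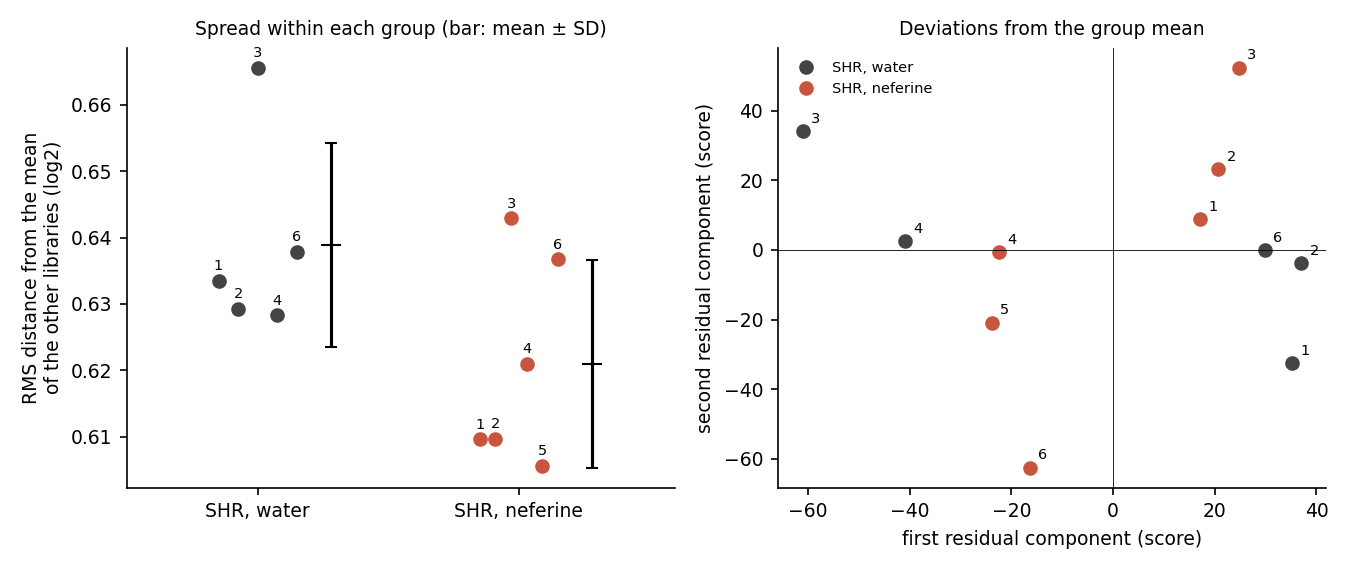
Left, root mean square distance of each library from the mean of the others of its group, rescaled for group size, with the mean ± SD of 5 SHR and 6 neferine libraries (numbers are those in the titles, and the axis does not start at 0). Right, scores on the first and second components of the deviations from the group means, which set SHR 3 and 4 and neferine 4, 5 and 6 on the negative side of the first.

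Rows listed for 1 group alone could not be tested, and they put a further limit on what the comparison could see. The SHR files held 1882 rows that the neferine files did not, with a highest SHR mean of 89.9. That mean came from SHR 6 alone, at 449.7, with at most 0.00118 in the others. The neferine files held 1556 rows of their own, and 1336 of these (85.9%) had a value of at least 1 in at most 2 libraries. The row with the highest mean was annotated and had values of 2178 and 3858 in neferine 4 and neferine 6 and of 0.0958 to 0.110 in the other 4 libraries. A value of 1 or more in all 6 treated hearts was seen for 1 of the 1556 rows, and 0 rows of the SHR files alone reached that in all 5 untreated hearts. These sets of rows were not alike: all 1556 neferine rows had a mean of at least 0.5, as did 94 of the 1882 SHR rows. Of the SHR rows 1880 (99.9%) had a value of at least 1 in at most 2 libraries. Among shared rows, 0 were listed at 0 in one group throughout and at 1 or more in every library of the other.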

How the data were processed

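Total RNA of rat hearts was depleted of ribosomal RNA and sequenced, per the labels' protocols. The labels do not say outright that each number is 1 animal, so p-values measure the spread between these libraries, which may be technical. For each transcript identifier the authors deposited a signal, a normalised abundance that is not logged. Its unit, the aligner, the counting tool, the build and the annotation are not given in the sources used here; the submitters' processing notes list limma but no version. Tests used limma 3.58.1 (R 4.3.3) on log2(value + 1), with a trended prior variance, for 5 SHR and 6 neferine libraries. Transcripts had to reach a value of 1 in 5 of them, and fold changes on this scale understate the changes of low values. The filter and test also served sums per assembled locus (the identifier without its last number) over rows listed for both groups. They served log2((value + 1)/(sum + 1)) within loci of 2 or more tested transcripts as well. The test was tried on simulated data. Single values were compared by exact permutation in both directions. For the spread, the finished distances were permuted and not computed anew for each split. A library's distance from the mean of the others was multiplied by the square root of (n - 1)/n for its group of n, so that groups of 5 and 6 compare. Named were transcripts past an adjusted p of 0.05, at most 2 higher and 2 lower, filled up by the smallest p among those whose groups do not overlap and whose higher mean is at least 1; other items are described by property or by their place in a named locus. Members, tests and alternatives were chosen with earlier results of these data known. Alternatives were leaving out libraries, the number in the titles as a block, pseudocount, filter, scaling, moderation, weights, WKY in the fit, other sums and another threshold. Leaving out neferine 1 to 3, neferine 4 to 6, or SHR 1 and 6, and filtering over all 16 libraries, were added after seeing the data.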

Additional observations from a re-analysis of the deposited data

Results flagged for a closer look

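Each of 46 sets of values from 1 group was checked for a single distant library, and 5 had one, where chance alone gives about 1 in 20. MERGE.18471.1 had a value of 0.516 in SHR 2 and at most 0.0449 in the other SHR. The sum of the locus MERGE.984 was 5.76 in SHR 2, the lowest of the group, against 6.20 to 6.37 in the others. The root mean square distance from the other libraries was 0.666 in SHR 3 and at most 0.638 in the other SHR. MERGE.5947.1 was 2.35 in neferine 1 and at most 0.819 in the other treated hearts. The most abundant transcript was 59313 in neferine 6 and at least 71139 in the other treated hearts. What set these libraries apart was not tested.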

How the results depend on the processing

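The count of 3 transcripts was 2 to 5 when single libraries were left out, with 5 without SHR 2 and 5 without SHR 3. It was 6 without SHR 3 and SHR 4, 6 without SHR 1 and SHR 6, 15 without neferine 1 to 3 and 13 without neferine 4 to 6. It was 0 where a value of at least 1 was asked of all 11 libraries, a filter that removes every named transcript. It was 1 with all 16 libraries and the filter over all 16, and 3 with them and the first filter, where only MERGE.5947.1 remained of the calls. The count of loci was 0 or 1 without single libraries (1 without SHR 3 and 1 without neferine 5), 1 without SHR 3 and SHR 4, 1 without neferine 1 to 3 and 6 without neferine 4 to 6. The count of shares was 1 to 3 without single libraries, with 2 without SHR 2, neferine 2, neferine 3 or neferine 4 and 3 without SHR 6. It was 0 with all 16 libraries or with a value of at least 1 in all 11, 8 without SHR 1 and SHR 6, 4 without neferine 1 to 3 and 3 without neferine 4 to 6.

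The share of transcripts bounded within 2-fold, 70.8%, was 67.9% to 69.7% without single libraries. It was 64.6% without SHR 3 and SHR 4, 63.7% without SHR 1 and SHR 6, 61.1% and 63.1% without neferine 1 to 3 and 4 to 6, 69.0% without a filter, 90.5% with a value of at least 1 in all 11 libraries, 68.6% with all 16 libraries and their own filter, 68.8% with the replicate block and 53.5% with a pseudocount of 0.1. The difference in spread, -0.0412, was -0.0538 to -0.0205 without single libraries, passing without neferine 3 (exact permutation p = 0.00794) or neferine 6 (-0.0502, exact permutation p = 0.0238). It was 0.00780 without SHR 3 and SHR 4, the one setting that turned its direction. By permutation of the finished distances it passed with a pseudocount of 0.1 (-0.0579), median-of-ratios scaling (-0.0578) and quantile normalization (-0.0504). It also passed with no filter (-0.0781), by the median distance (-0.186), and without neferine 1 to 3 (-0.0727) or 4 to 6 (-0.0740). Neferine 1 to 3, neferine 4 to 6, and SHR 3 and 4 each share a side of the first component in these same data. Leaving out such a set favours a tighter group, so these settings are no separate support. Distances were not computed anew for each split, so every p-value of the spread is rough. What causes the differences between settings was not tested.

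The numbers in the titles did not pair the groups: the deviations of 5 same-numbered pairs correlated at -0.03 to 0.04, and 0 of the 5 SHR libraries correlated best with their own number. Neferine 5 has no SHR of its number, so the replicate block also takes it out of the estimate. With the block 2 transcripts were called in place of 3, 0 loci and 1 share, and MERGE.18471.1 was not called (limma adjusted p 0.913), as it was not without neferine 5 alone (limma adjusted p 0.0916). Among 24 alternatives in which their p was recorded, MERGE.984.3 kept its call in 23 and MERGE.18471.1 in 8. The 24 include the exact permutation test. Its p is not adjusted and is the smallest possible wherever groups do not overlap, so it could not end either call. Of the fits outside the 24, the one without a filter on low values kept all 3 calls. The fit with the filter over all 16 libraries kept only MERGE.5947.1. Without read counts, the part of depth in these limits is unknown.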
